A study of Mus musculus with 6 samples.

Results

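The beta and gamma subunits of heterotrimeric G proteins were followed in LβT2, a line of mouse cells that stems from the gonadotropes of the pituitary. The members were the 10 genes Gnb1, Gnb2, Gnb3, Gnb4, Gnb5, Gng2, Gng3, Gng4, Gng12 and Gng13, taken by gene symbol from the platform annotation of the array, out of 19057 genes with a single symbol. They were read by 15 of the 45281 probes, 8 for the 5 beta genes and 7 for the 5 gamma genes. Cells had been transfected for 48 h with scrambled siRNA (3 samples) or with Gas siRNA (3 samples). Their total RNA was read on Illumina mouse expression BeadChips, with 1 array per sample. The labels give the strain as CB6F1/J for all 6 samples, name no clone, and do not say whether the 3 samples of a group were separate cultures, so the spread that the p-values rest on may be technical.

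A heterotrimeric G protein consists of an alpha subunit, which binds guanine nucleotide, and a beta and gamma subunit that stay together as a tight dimer. When a receptor activates the alpha subunit, the dimer is released and acts on its own targets, among them inwardly rectifying potassium channels, voltage-gated calcium channels, phospholipase C beta, some adenylyl cyclases and G protein-coupled receptor kinases. The beta subunit is a propeller-shaped protein, and the gamma subunit carries the lipid anchor that holds the dimer at the membrane. In pituitary gonadotropes G proteins couple the receptor for gonadotropin-releasing hormone and other receptors to these effectors.

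Gas was read as Gs alpha, the product of Gnas. The Gnas probe of highest signal (ILMN_2632206) had normalized log2 intensities of 11.81, 11.76 and 11.87 with scrambled siRNA and of 8.84, 8.96 and 8.93 with Gas siRNA, a log2 change of -2.91 (SE 0.0865, limma adjusted p = 2.48e-20). Another bright Gnas probe (ILMN_1223437) had a log2 change of -3.00 (limma adjusted p = 2.93e-17). The remaining measured Gnas probes were near background and did not pass, with log2 changes from -0.91 to 0.20. Of 9 gonadotrope marker genes on the array 8 were measured and 0 of them passed the limma test (1 at an unadjusted p under 0.05, Pitx1), while Fshb lay below background. Markers of other pituitary cells were measured for 1 of 6 genes (Gh, near background), and fibroblast, endothelial and immune markers for 2 of 7 (Cdh5 and Pecam1). Cdh5 and Pecam1 were well above background, with mean log2 intensities of 9.65 and 9.12 with scrambled siRNA. Gh, Cdh5 and Pecam1 did not pass in limma (1, Cdh5, at an unadjusted p under 0.05). Over the whole array 1321 of 11890 genes, each by its brightest measured probe, had an unadjusted p under 0.05. Between 49.4% and 49.7% of probes exceeded a background bound set for each array, an intensity of 141. A probe was measured, or kept, if at least 3 of the 6 arrays were above this bound, which held for 22707 probes. The small number of arrays limits the precision of every value.

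All 10 beta and gamma subunit genes were measured, by 13 of their 15 probes, each of which lay above the bound on all 6 arrays. The transcripts of Gng2 and Gng4, both gamma subunits, fell with Gas siRNA, Gng2 by 0.53 and 0.67 on the log2 scale on its 2 probes and Gng4 by 0.45. These were the 3 probes of 13 that passed the test (adjusted p under 0.05 over all kept probes, limma), all of them lower, against 1.13% of all kept probes called in either direction and 0.643% called lower and 0.489% called higher. By gene, each read by its brightest kept probe, 2 of 10 passed, against 1.63% of 11890 genes. The members were chosen with earlier results of these data known, so neither count is a test of the members as a set. None of the 7 measured beta probes passed in limma, and 1 of them, that of Gnb3, had an unadjusted p under 0.05. The median log2 change was -0.38 over the 6 gamma probes, 0.044 over the 7 beta probes and 0.0039 over all kept probes. Gng2 counts with 2 of these 6 gamma probes. The 4 other measured gamma genes, outside the members, had log2 changes from -0.13 to 0.10, with a median of -0.0042. In bulk samples fewer cells of a type and less RNA per cell cannot be told apart.

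**Figure D1:**
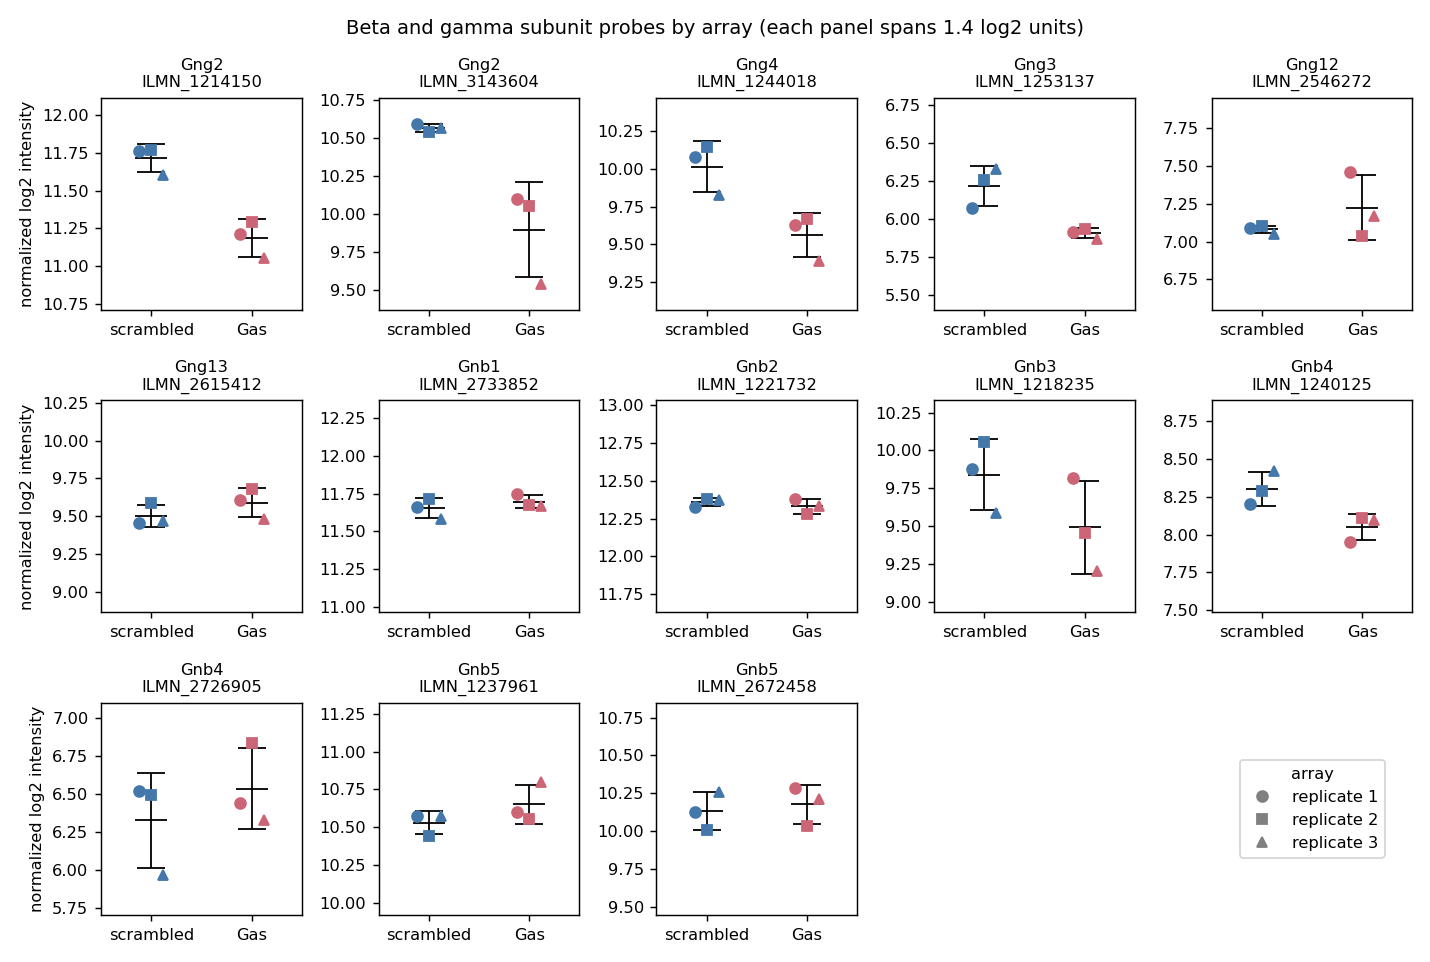
Normalized log2 intensity (vertical axis) of each of the 13 measured probes on the scrambled siRNA and Gas siRNA arrays; each point is an array, the bars give the mean and SD of the 3 arrays, and every panel spans the same height. The groups are separate for both Gng2 probes, Gng4, Gng3 and the first Gnb4 probe, and overlap in the other 8 panels.

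**Figure D2:**
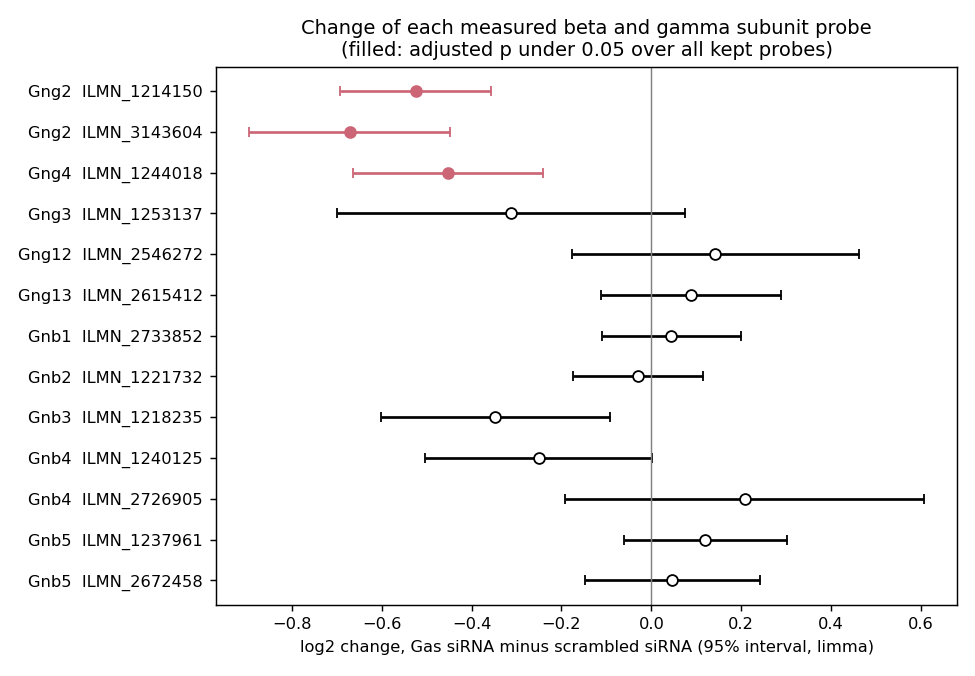
Log2 change of each measured probe, Gas siRNA minus scrambled siRNA (horizontal axis), with its 95% interval from limma; filled points have an adjusted p under 0.05. The intervals of Gng2, Gng4 and Gnb3 lie below 0, and that of Gnb3 is open because it did not pass after adjustment over all kept probes.

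Among the gamma subunits, Gng2 encodes a widely expressed subunit that is often used as the standard partner of Gnb1. Its brighter probe (ILMN_1214150) had deposited intensities of 3585, 3604 and 3228 on scrambled siRNA replicates 1, 2 and 3, and of 2490, 2624 and 2235 on Gas siRNA replicates 1, 2 and 3. On the normalized log2 scale these were 11.76, 11.77 and 11.61 against 11.22, 11.29 and 11.05. Every Gas siRNA array was below every scrambled siRNA array, and replicate 3 was the lowest of each group. The group means were 11.71 ± 0.0928 for scrambled and 11.19 ± 0.124 for Gas siRNA (SD, n = 3 each). The level was 1.44-fold lower, a log2 change of -0.53 (SE 0.0823, limma adjusted p = 0.000327) with a 95% interval from -0.69 to -0.36.

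The second Gng2 probe (ILMN_3143604), annotated to the same transcript, was tighter with scrambled siRNA and more spread with Gas siRNA. Its log2 intensities were 10.60, 10.54 and 10.57 with scrambled siRNA and 10.10, 10.05 and 9.53 with Gas siRNA. The groups were again separate, with Gas siRNA replicate 3 standing 0.52 below the nearest array. The mean went from 10.57 ± 0.029 to 9.90 ± 0.313 (SD, n = 3 each), a log2 change of -0.67 (SE 0.109, limma adjusted p = 0.000575) or 1.59-fold lower. Without Gas siRNA replicate 3 the change of this probe was -0.49 (adjusted p = 0.00524). The changes of the 2 Gng2 probes differed by 0.15 on the log2 scale, about as much as the error of that difference (0.137, taking the probes as independent, which they are not because they share the arrays).

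Gng4 encodes a gamma subunit known from brain and endocrine tissue. Its probe (ILMN_1244018) had log2 intensities of 10.08, 10.14 and 9.83 with scrambled siRNA and of 9.63, 9.67 and 9.39 with Gas siRNA. The groups did not overlap, and replicate 3 of each group was again its lowest. The mean was 10.01 ± 0.167 against 9.56 ± 0.148 (SD, n = 3 each), and the log2 change was -0.45 (SE 0.103, limma adjusted p = 0.0192) or 1.37-fold lower. The call was lost without scrambled siRNA replicate 1 (-0.42, adjusted p = 0.0850), scrambled siRNA replicate 2 (-0.39, adjusted p = 0.126) or Gas siRNA replicate 3 (-0.37, adjusted p = 0.145).

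The genes with the most similar pattern over the 6 arrays were looked up for the brightest probe of Gng2 (ILMN_1214150) and of Gng4. Both had been singled out because they fell, and the size of the fall makes up most of this distance. After the scrambled siRNA mean of each gene was subtracted, Gng4 was the third nearest to Gng2 among 11485 named genes, with a root mean square distance of 0.0707 log2 over the 6 arrays, and Gng2 was the third nearest to Gng4. The other Gng2 probe (ILMN_3143604) was farther away, at 0.210 from Gng4 and 0.167 from the brighter Gng2 probe. The nearest to Gng2 was Shisa2 (distance 0.0317), a relative of a frog protein that holds back the maturation of Wnt and FGF receptors, which fell by 0.51 (limma adjusted p = 0.00216). Lpcat3, an enzyme that remodels membrane phospholipids, was the second nearest to Gng2 (0.0667) and the nearest to Gng4 (0.0323), and it fell by 0.48 (limma adjusted p = 0.00797). The second nearest to Gng4 was the complement gene C7 (0.0651), whose log2 change of -0.49 did not pass (limma adjusted p = 0.5004).

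Promoter sequence of the members that fell is shown beside that of Gnb1, a beta subunit gene whose transcript did not pass, because Gs alpha acts through cyclic AMP and the cyclic AMP response element is the binding motif of CREB. The windows hold the 250 bases before an annotated start, from RefSeq on GRCm38.p6, 5′ to 3′ on the strand of the gene. Capitals mark the half-site TGACG or its reverse complement. The Gng2 window is chr14:19976694-19976943 on the minus strand, the Gng4 window chr13:13784057-13784306 on the plus strand, the downstream of 2 annotated starts, and the Gnb1 window chr4:155491111-155491360 on the plus strand.
Gng2: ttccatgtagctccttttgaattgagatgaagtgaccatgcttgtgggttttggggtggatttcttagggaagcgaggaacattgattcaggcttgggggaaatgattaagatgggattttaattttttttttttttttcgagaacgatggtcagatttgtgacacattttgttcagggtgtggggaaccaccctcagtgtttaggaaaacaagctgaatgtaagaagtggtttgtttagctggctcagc
Gng4: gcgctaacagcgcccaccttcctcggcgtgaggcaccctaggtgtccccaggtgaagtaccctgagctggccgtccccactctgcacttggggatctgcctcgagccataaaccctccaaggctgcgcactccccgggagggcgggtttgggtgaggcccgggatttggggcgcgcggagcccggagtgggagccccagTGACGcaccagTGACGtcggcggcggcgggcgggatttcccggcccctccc
Gnb1: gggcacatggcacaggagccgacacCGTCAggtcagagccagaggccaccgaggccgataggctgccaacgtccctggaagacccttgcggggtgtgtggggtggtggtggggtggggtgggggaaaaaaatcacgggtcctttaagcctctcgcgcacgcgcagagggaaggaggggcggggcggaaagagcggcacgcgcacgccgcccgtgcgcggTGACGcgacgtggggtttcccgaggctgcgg
The Gng2 window held 0 half-sites. The Gng4 window held 2, starting 51 and 40 bases before the annotated start, and the Gnb1 window held 2, starting 225 and 31 bases before it. The other Gng4 window, from the upstream start, held 0. On either strand the half-site was present in 17.8% of 32851 promoter windows of this length and in 2 of the 11 windows of the 8 members with an entry. The full palindrome TGACGTCA, which contains the half-site on each strand, was present in 1.55% of all windows and in 0 of the 11. A match describes the letters in the window and is not evidence of binding.

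The other 3 gamma genes did not pass. Gng3, a gamma subunit of neurons, was dim, with log2 intensities of 6.07, 6.25 and 6.33 with scrambled siRNA and of 5.92, 5.94 and 5.87 with Gas siRNA. The 3 Gas siRNA arrays were all lower, yet the log2 change of -0.31 (SE 0.189, 95% interval from -0.70 to 0.075) did not pass (limma adjusted p = 0.644). Its size depended on the background step, at -0.12 with no background correction and -0.21 with an offset of 50. Across the measured members the groups did not overlap for 5 of 13 probes, all 5 lower, against 14.6% of all kept probes in either direction and 7.33% lower. These 5 include the 3 called probes of Gng2 and Gng4. Because the members were chosen with earlier results of these data known, this count is no test of them as a set.

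Gng13, known from taste, olfactory and retinal cells, had log2 intensities of 9.45, 9.59 and 9.47 with scrambled siRNA and of 9.61, 9.68 and 9.49 with Gas siRNA. These overlapped, with a log2 change of 0.087 (SE 0.098, 95% interval from -0.11 to 0.29). Gng12, a broadly expressed gamma subunit, was measured by the probe annotated to a cDNA clone (ILMN_2546272), with a log2 change of 0.14 (SE 0.156, 95% interval from -0.18 to 0.46). Gas siRNA replicate 1 alone stood above the other arrays on that probe, at 7.46 against 7.04 to 7.17, and without it the change was 0.025. The Gng12 probe annotated to the RefSeq transcript (ILMN_1248949) was above the bound on 0 of the 6 arrays, with deposited intensities between 111 and 138, and has no comparison.

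Of the beta subunits, Gnb1 and Gnb2, the broadly expressed forms, had the narrowest intervals of all members. Gnb1 had log2 intensities of 11.66, 11.71 and 11.58 with scrambled siRNA and of 11.75, 11.68 and 11.67 with Gas siRNA. Its log2 change of 0.044 (SE 0.0756) had a 95% interval from -0.11 to 0.20, or 0.926-fold to 1.15-fold. Gnb2 ran from 12.33 to 12.38 with scrambled siRNA and from 12.28 to 12.38 with Gas siRNA, and its log2 change of -0.029 (SE 0.0709) had an interval from -0.17 to 0.12, or 0.886-fold to 1.08-fold. The arrays of the 2 groups overlapped for both genes. Falls as large as that measured for Gng2 lie outside both intervals.

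Gnb3, the beta subunit of cone photoreceptors and taste cells, had the difference with the smallest p among the beta genes, with a wide spread between arrays. Its log2 intensities were 9.88, 10.05 and 9.59 with scrambled siRNA and 9.82, 9.45 and 9.21 with Gas siRNA. Gas siRNA replicate 1 lay above scrambled siRNA replicate 3, so the groups overlapped. The log2 change was -0.35 (SE 0.125, unadjusted p = 0.00931, limma adjusted p = 0.251), with SDs of 0.236 and 0.306 (n = 3 each). Without Gas siRNA replicate 1 it was -0.51 and passed (limma adjusted p = 0.0445), and without Gas siRNA replicate 3 it was -0.20 (limma adjusted p = 0.702).

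The 2 Gnb4 probes, annotated to the same transcript, went in opposite directions. The brighter probe (ILMN_1240125) had log2 intensities of 8.20, 8.29 and 8.42 with scrambled siRNA and of 7.95, 8.11 and 8.09 with Gas siRNA, a log2 change of -0.25 (SE 0.124, limma adjusted p = 0.516) with groups that did not overlap. The dimmer probe (ILMN_2726905) had a log2 change of 0.21 (SE 0.195, limma adjusted p = 0.809), and its lowest array was scrambled siRNA replicate 3 at 5.97 against 6.33 to 6.84 on the others. Without that array the change of this probe was 0.027, without Gas siRNA replicate 2 it was 0.056, and with no background correction it was 0.089. Neither passed, and their average had a log2 change of -0.022.

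Gnb5 encodes the most divergent beta subunit, which in nervous tissue pairs with RGS proteins of the Rgs7 group in place of a gamma subunit. Its probes ILMN_1237961 and ILMN_2672458, annotated to different RefSeq transcripts, had log2 changes of 0.12 (SE 0.0883, 95% interval from -0.060 to 0.30) and 0.047 (SE 0.095, 95% interval from -0.15 to 0.24). Neither passed in limma, with adjusted p-values of 0.734 and 0.927. Without Gas siRNA replicate 3 the change of the first was 0.047, and without scrambled siRNA replicate 2 it was 0.077. Another Gnb5 probe (ILMN_1246507), annotated to the transcript of ILMN_2672458, was above the bound on 0 of the 6 arrays, with deposited intensities between 116 and 127. The 2 probes annotated to that transcript thus differed in whether they gave signal.

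The differences between members were described within arrays, as the log2 ratio of the brightest probe of Gng2 or Gng4 to that of each other member. Gng2 and Gng4 were picked because they fell on these same arrays. Separate ratios to members that changed little therefore follow in part from that choice. The 17 pairs were compared with an exact permutation test, 2-sided, in which 3 against 3 arrays cannot give a p below 0.10. The log2 ratio of Gng2 to Gnb1 was lower with Gas siRNA by 0.57, Gng2 having changed by -0.53 and Gnb1 by 0.044, with SDs of 0.0395 and 0.119 within groups (n = 3 each) and ratios that did not overlap (exact p = 0.10, adjusted p = 0.17). The ratios were separate between the groups, at that same p, in 5 of 9 pairs for Gng2 and in 5 of 8 for Gng4, in each case those with Gnb1, Gnb2, Gnb5, Gng12 and Gng13. They overlapped with Gnb3, Gnb4 and Gng3, and for Gng2 against Gng4, whose changes differed by 0.072 (exact permutation p = 0.30, adjusted p = 0.364). No pair could pass after adjustment in this exact test, so it shows only which ratios were separate.

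**Figure D3:**
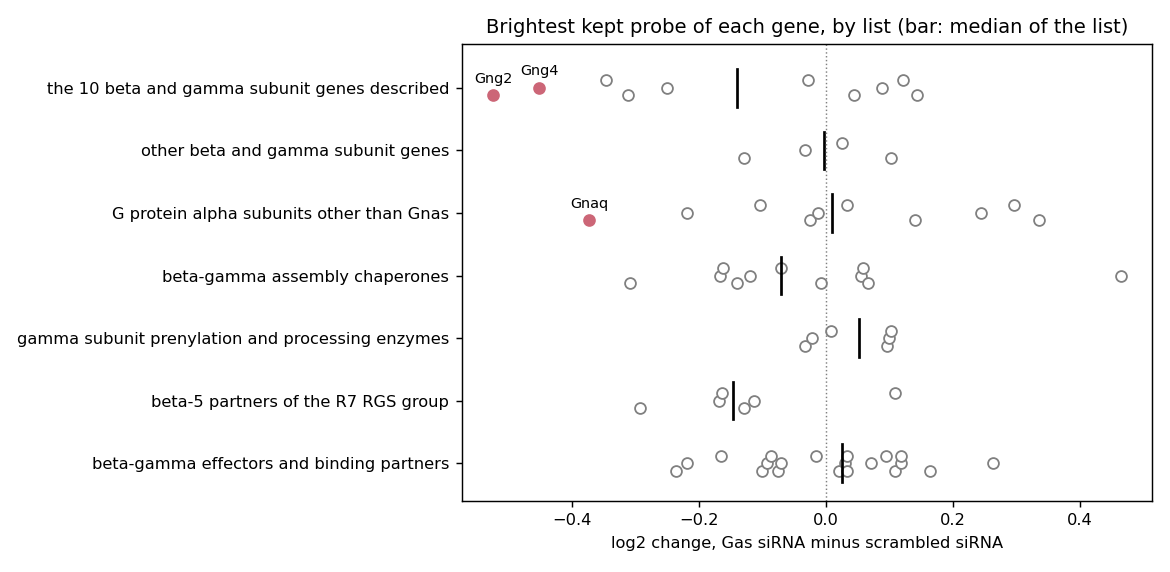
Log2 change, Gas siRNA minus scrambled siRNA (horizontal axis), of the brightest kept probe of each gene in the members and in lists of related genes; filled points passed the test and bars are list medians. Gng2, Gng4 and Gnaq are the genes that passed, and the list medians lie between -0.15 and 0.052.

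Related genes were read from lists, each gene by its brightest kept probe, where 1.63% of 11890 genes passed in either direction and the median log2 change was near 0 (-0.00015). Of those 11890 genes 1321 had an unadjusted p under 0.05 in limma. Of the other beta and gamma subunit genes 4 of 7 were measured and 0 passed in limma (0 at an unadjusted p under 0.05). Their log2 changes were 0.025 (SE 0.0772) for Gng10, -0.13 (SE 0.234) for Gng11, 0.10 (SE 0.240) for Gng5 and -0.033 (SE 0.148) for Gng7. Gng11 and Gng5 were near background, while Gng8, Gngt1 and Gngt2 lay below it. Of the alpha subunit genes other than Gnas 10 of 14 were measured, and Gnaq, an alpha subunit that couples to phospholipase C beta, fell by 0.37 (SE 0.0828, limma adjusted p = 0.0152). Its next brightest probe changed in the same direction but did not pass (-0.25, unadjusted p = 0.0151, limma adjusted p = 0.319). Gna13 (-0.22) and Gna12 (0.33) did not pass in limma, with adjusted p-values of 0.391 and 0.488. Their unadjusted p-values were 0.0242 and 0.0425. With Gnaq, 3 of the 10 measured genes had an unadjusted p under 0.05. The median of the alpha list was 0.0099.

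The genes that fold, modify and use the dimer did not pass in limma on their brightest probes. Of 14 assembly chaperone genes on the array, the phosducin-like proteins and the TCP-1 ring subunits that fold beta subunits, listed together with the Ric8 chaperones of alpha subunits, 11 were measured, with a median log2 change of -0.071. The smallest p-values belonged to the ring subunit genes Cct7 (0.46, SE 0.245, adjusted p = 0.559) and Cct6a (-0.12, SE 0.0718, adjusted p = 0.641). Cct7 was near background, with deposited intensities between 135 and 166. All 6 prenylation and processing enzymes of gamma subunits were measured, with log2 changes from -0.034 to 0.10, among them the farnesyltransferase beta subunit gene Fntb (0.10, adjusted p = 0.772) and the protease gene Rce1 (0.10, adjusted p = 0.816).

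Of the Gnb5 partners 6 of 7 were measured, with a median log2 change of -0.15 and 5 of 6 values below 0. Rgs7 (-0.17, SE 0.0903, limma adjusted p = 0.567) and the membrane anchor gene Rgs7bp (-0.16, SE 0.117, adjusted p = 0.723) had the smallest p-values. Of the effectors and binding partners 20 of 30 were measured, with a median of 0.025 and a range from -0.24 to 0.26. The phospholipase gene Plcb2 (0.26, adjusted p = 0.803) and the calcium channel gene Cacna1b (-0.24, adjusted p = 0.813), both near background, had the smallest p-values there. In these 4 lists 0 genes passed in limma and 0 had an unadjusted p under 0.05. Over all 11890 genes 1321 had an unadjusted p under 0.05.

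**Figure D4:**
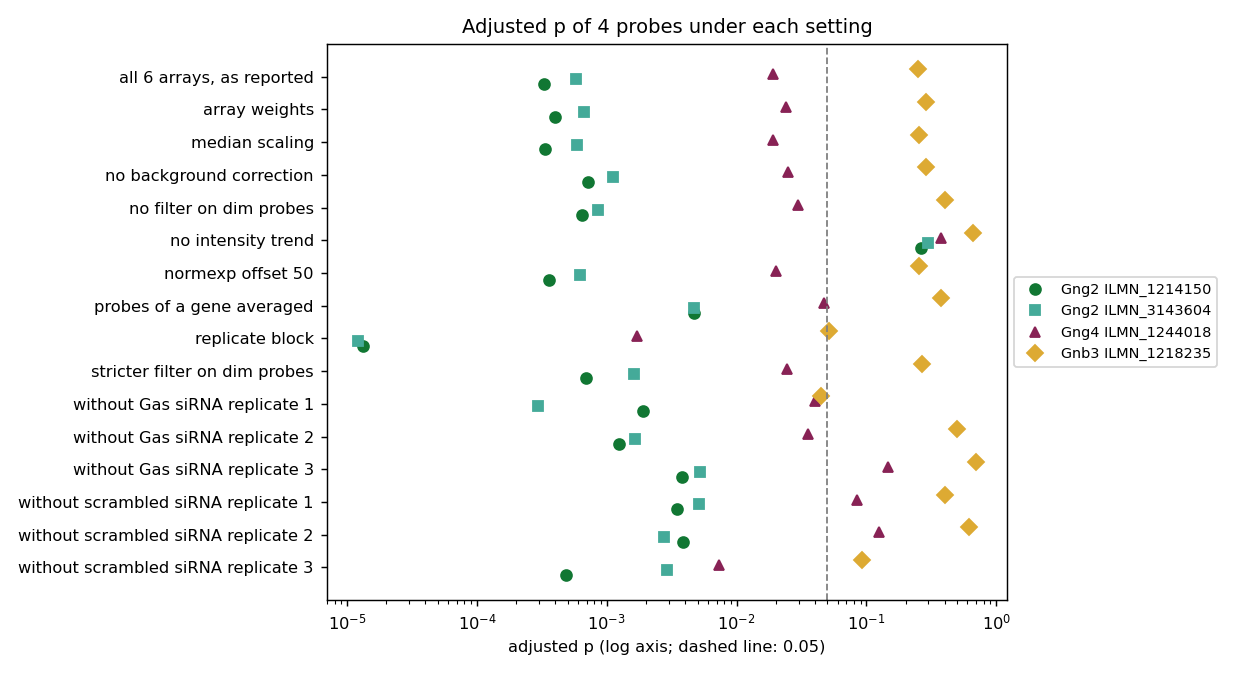
Adjusted p (horizontal log axis, dashed line at 0.05) of the 2 Gng2 probes, the Gng4 probe and the Gnb3 probe under each processing setting. Both Gng2 probes stay left of the line in 14 of 15 alternatives, the exception being the fit without the intensity trend, and Gng4 in 11 of 15.

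The calls depended on how the variance was modelled. Without the intensity trend the Gng2 probes had adjusted p-values of 0.262 and 0.2998 and Gng4 of 0.376 in limma, and 0 of the 13 member probes passed, beside 8 probes of the whole array. In the other 14 alternatives Gng2 passed, on both probes or, in the setting that averages the probes of a gene, on their average (-0.60, limma adjusted p = 0.00468). Fitted singly, the probes had log2 changes from -0.58 to -0.46 for the brighter and from -0.77 to -0.49 for the other.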

How the data were processed

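Expression was measured in 6 samples on Illumina arrays. The values are the authors' deposited intensity values, linear and 1 per probe and array. BeadStudio is named, with no version, in the submitters' processing notes, while the sources used here do not name the normalization. The deposited columns had nearly equal quantiles (sorted values within 1.67% below the 10 brightest probes), with a minimum of 97.6, which shows that background was still in them. A second table held 24 columns named by chip and position that match no sample's labels, and was not used.

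The background of each array was estimated from the mode of its log2 intensities (127) and the spread below it (SD 8.29 to 8.37). Normexp with an offset of 16, quantile normalization and log2 followed. Probes above the 95th percentile of background on at least 3 of 6 arrays were kept, and the 2 groups were fitted in limma 3.58.1 under R 4.3.3 (lmFit, eBayes with an intensity trend, 2-sided, Benjamini-Hochberg over 22707 kept probes, threshold 0.05). Changes are Gas siRNA minus scrambled siRNA. Of the probes, 34885 had 1 symbol, 18 several and 10378 none. On simulated arrays with 200 changed probes of 22707, log2 changes of 0.5, 1 and 2 were recovered in 44.8%, 89.6% and 100.0%, and 10 of 166 calls were false. The simulated noise was independent and normal, with variances from the same intensity trend that the fit assumes. These rates therefore cannot show how the fit performs where that trend does not hold.

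The members and the gene lists were chosen with earlier results of these data known. Every member probe is accounted for. From each list the genes that passed, and up to 2 others with the smallest p, are named, and for each member that passed, the 3 nearest genes with clone and predicted names left out. Pitx1, Cdh5, Gh, Pecam1 and Fshb, and Gng7, Gng8, Gng10, Gngt1 and Gngt2, are named outside this rule, after their values were seen. Correlations between arrays of a group were 0.991 for every pair, so no array was a copy of another.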

Additional observations from a re-analysis of the deposited data

How the results depend on the processing

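Each member probe was refitted under 15 alternatives, 195 values in all, of which 185 kept their direction and their side of the threshold. The fit without the intensity trend called 8 probes of the array in place of 257, and 0 of the 13 member probes in place of 3, and the cause was not tested. With the probes of a gene averaged, 124 genes and unnamed probes passed in place of 215, and Gng2 and Gng4 both passed. Leaving out each array in turn gave 146 to 209 called probes and 2 to 4 called member probes. The counts were 146 without scrambled siRNA replicate 3, 167 without Gas siRNA replicate 2 and 154 without Gas siRNA replicate 3. The sign turned for the dimmer Gnb4 probe with probes averaged (-0.022, set by the brighter probe), and for Gnb5 ILMN_2672458 without Gas siRNA replicate 1 (-0.0082) or scrambled siRNA replicate 2 (-0.015), in a range from -0.015 to 0.12 over the 6 arrays left out. Background correction, offset, scaling, filter and array weights changed no call of a member. They did change sizes of dim probes that did not pass, as given above for Gng3. The standard errors of the fit, which draw on other probes of like brightness, were 0.189 for the dim Gng3 probe, whose own SDs were 0.132 and 0.0344, and 0.0709 for Gnb2.

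The labels number the replicates of each group but state no pairing, so the main fit did not take the numbers as pairs. Same-numbered arrays had deviations from their group means that correlated at 0.0163, 0.0520 and 0.0875, against -0.0720 to 0.0214 between others. The values of 0.0520 and 0.0875 lie above those of all other pairs, and whether same-numbered samples belong together is not known. With the replicate number as a block, 429 probes passed and 3 member probes did, with adjusted p-values of 1.31e-05 and 1.20e-05 for Gng2, 0.00170 for Gng4 and 0.0512 for Gnb3.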
